A study of Mus musculus with 15 samples.

Results

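The 32 genes described here were listed as markers of microglia, the resident macrophages of the brain. They include the genes for the complement component C1q and a complement receptor. They were taken as a named list of symbols and matched through their gene identifiers to a table of gene counts from the mouse medial prefrontal cortex (mPFC). All 32 were found among the 27179 identifiers of the table, and all 32 passed the filter on low counts that left 16816 genes for testing. The study compared dissected mPFC of C57BL/6J mice in 4 groups: ABX-treated and non-ABX mice, each before (pre) and after (post) fear extinction, the procedure in which a learned fear response declines. There were 3 pre non-ABX libraries (replicates 1, 3 and 4) and 4 libraries in each of the pre ABX, post non-ABX and post ABX groups. The labels give no genotype beyond the strain, no age and no definition of ABX, and do not state whether each library is from a separate animal, so a p-value here sets a difference against the scatter of libraries, part of which may be technical. The libraries were made from total RNA of tissue with a kit for very small amounts of RNA. The library protocol in the labels speaks of sorted cells, while the sample source is dissected tissue.

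Microglia depend on the growth factor receptor CSF1R and on the transcription factors PU.1, IRF8 and SALL1, and TGF-beta keeps them in a resting state marked by the purine receptor P2RY12, the fractalkine receptor CX3CR1 and the membrane protein TMEM119. TREM2 signals through the adaptor TYROBP and is needed for their response to lipids and debris. Microglia are also the main source of C1q in the brain, whose 3 chains start the classical complement pathway and, with C3, can tag synapses for removal through the receptor chain encoded by Itgam. In bulk tissue, fewer microglia and less RNA per microglial cell cannot be told apart. RNA of a member gene from any other cell, Tgfbr1 included, is counted together with that of microglia.

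The genes for the C1q chains lie side by side on mouse chromosome 4 (GRCm38.p6, the assembly behind mm10), C1qb at 136880126-136886200, C1qc at 136889801-136892936 and C1qa at 136895916-136898844, within 18719 bases. PU.1, the product of Spi1, binds DNA through a GGAA core. The motif AGGAAGT (read on both strands as AGGAAGT or ACTTCCT) was therefore sought in RefSeq promoters of GRCm38.p6 that run from 250 bases before to 50 bases after a gene's start. Of the members, 24 matched a promoter in that table, and the motif was in at least 1 promoter of 9 of them (37.5%): C1qb, C1qc, Cd53, Ctss, Fcrls, P2ry12, Ptprc, Sall1 and Slco2b1. Over all 27025 genes with a promoter the share was 10.7%. A match is a description of the letters and not of binding. The promoters below belong to neighbouring members that moved together between libraries as deposited (C1qb and C1qc). Others belong to members that moved the opposite way (P2ry12 and Cd53). Between the C1q genes and members under 45% transcript GC the median correlation was -0.56, and 0.38 with a trend on GC content removed. The promoters were picked from these same values, and a link of their sequence to the direction was not tested. Each is written from 5′ to 3′ on the gene's strand, the minus strand in all 4 cases, with the motif in capitals. The regions are chr4:136886151-136886450 for C1qb, chr4:136892865-136893164 for C1qc, chr3:59262936-59263235 for P2ry12 and chr3:106790100-106790399 for Cd53.
C1qb: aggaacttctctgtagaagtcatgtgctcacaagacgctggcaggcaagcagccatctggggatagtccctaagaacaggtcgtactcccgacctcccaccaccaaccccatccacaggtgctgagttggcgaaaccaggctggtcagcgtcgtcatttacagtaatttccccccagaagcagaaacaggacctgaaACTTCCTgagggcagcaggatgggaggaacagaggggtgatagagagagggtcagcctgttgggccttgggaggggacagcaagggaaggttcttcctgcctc
C1qc: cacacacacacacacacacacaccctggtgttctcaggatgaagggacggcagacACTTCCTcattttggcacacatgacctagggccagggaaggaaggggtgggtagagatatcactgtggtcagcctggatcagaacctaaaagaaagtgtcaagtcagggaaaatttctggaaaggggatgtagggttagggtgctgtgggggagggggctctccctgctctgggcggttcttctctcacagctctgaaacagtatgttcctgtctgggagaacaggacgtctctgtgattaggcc
P2ry12: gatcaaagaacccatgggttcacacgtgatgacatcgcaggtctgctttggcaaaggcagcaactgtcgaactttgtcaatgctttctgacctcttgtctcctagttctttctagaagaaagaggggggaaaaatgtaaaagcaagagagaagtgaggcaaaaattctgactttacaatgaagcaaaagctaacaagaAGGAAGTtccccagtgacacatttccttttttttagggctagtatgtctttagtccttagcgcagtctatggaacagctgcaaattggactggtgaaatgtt
Cd53: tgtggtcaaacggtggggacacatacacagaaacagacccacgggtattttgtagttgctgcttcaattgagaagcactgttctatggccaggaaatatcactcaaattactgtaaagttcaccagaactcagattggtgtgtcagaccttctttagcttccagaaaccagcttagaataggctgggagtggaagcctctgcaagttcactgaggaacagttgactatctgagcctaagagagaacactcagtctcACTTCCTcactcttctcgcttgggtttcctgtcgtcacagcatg
The GC content of these promoters was 56.3% for C1qb, 53.3% for C1qc, 42.3% for P2ry12 and 46.3% for Cd53.

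Library totals ran from 44254906 to 57929503 counts, and levels are given as CPM (counts scaled to a common library total) with TMM-scaled library sizes. Every member had counts in every library, from 51 for Spi1 in its lowest library upwards. The 10 neuronal markers summed to 12908 to 13979 CPM and the 32 members to 645 to 807 CPM. Marker genes of perivascular macrophages, which share several of the members with microglia, summed to 54.4 to 78.5 CPM (16 of 16 with counts in every library, Mrc1 at 8.86 to 14.8 CPM), and their part in the members' values was not tested. The 20 leukocyte markers of blood summed to 24.8 CPM in post ABX replicate 1 and to 10.6 to 15.7 CPM in the other libraries, with S100a9 at 3.62 CPM, S100a8 at 2.17 CPM and Ngp at 2.26 CPM in that library. Over all libraries 12 of these 20 markers averaged under 0.1 CPM.

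The summed level of the microglial list was similar across the 4 groups. The summed CPM of the 32 members averaged 722 ± 43.2 (SD, n = 3) in pre non-ABX, 709 ± 50.4 (SD, n = 4) in pre ABX, 740 ± 62.6 (SD, n = 4) in post non-ABX and 727 ± 42.1 (SD, n = 4) in post ABX. These means lay closer to each other than the libraries of any group, which together spanned 645 to 807 CPM. No member passed the test (edgeR's quasi-likelihood test, adjusted p under 0.05 over 16816 genes) in any of 7 comparisons: ABX against non-ABX before extinction (0.00595% of all genes tested were called) and after it (0.0178%), post against pre in non-ABX (0%) and in ABX mice (0.0951%), the difference between the ABX effects at the 2 stages (0%), the ABX effect averaged over both stages (0.624%) and the stage effect averaged over both treatments (0.963%). The last 2 use the same libraries as the first 4, and comparisons that share a group share its libraries. At an unadjusted p under 0.05 the members counted 2 before extinction (16.0% of all genes), 4 after it (13.3%), 1 for stage in non-ABX (4.94%), 2 for stage in ABX (16.6%), 0 for the difference of ABX effects (2.06%), 12 for the averaged ABX effect (30.6%) and 3 for the averaged stage effect (20.4%). DESeq2 called 0, 1, 0, 0, 0, 4 and 1 members in the same order (1.08%, 11.8% and 4.19% of all genes where it called any), and limma's voom with sample weights called 0, 1, 5, 0, 0, 0 and 13 (1.82%, 19.0% and 37.8%). The members' median log2 fold changes were 0.00, -0.04, 0.04, 0.04, -0.01, -0.04 and 0.04, beside all-gene medians between 0.00 and 0.01.

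A count of 0 called members in the averaged comparisons rested on which libraries were in the fit. Without pre ABX replicate 4, 8 members passed in the averaged ABX effect (C1qa, C1qc, Laptm5, Selplg and Tmem119 lower, Fcgr3, Ly86 and Ptprc higher), where 18.2% of all genes passed, and 1 without pre non-ABX replicate 4 (Fcgr3, 6.20% of all genes). Without pre non-ABX replicate 3, 4 members passed in the averaged stage effect (C1qc, Selplg and Tmem119 higher after extinction, Tgfbr1 lower), where 13.3% of all genes passed, and 1 without pre ABX replicate 4 (Tgfbr1, 4.45%). Counting members whose libraries did not overlap between groups, ABX stood above non-ABX for 2 members before extinction (Ptprc and Fcer1g, 3.62% of all genes) and below it for 0 (3.14%). After extinction ABX stood above for 2 (Fcgr3 and Ptprc, 4.74%) and below for 1 (Laptm5, 6.36%). Post stood above pre for 0 members in non-ABX (2.33%) and below for 1 (Tgfbr1, 3.57%), and in ABX mice above for 1 (Fcgr3, 2.69%) and below for 0 (2.78%). Over both stages 0 members separated all ABX from all non-ABX libraries upwards (0.232%) or downwards (0.279%), and over both treatments 0 separated post from pre upwards (0.0892%) or downwards (0.220%). The 95% intervals of the averaged ABX effect ran between -0.57 and 0.61 (log2) over the members, and 25 of 32 lay wholly within 0.5 of 0, as did 28 of 32 for the averaged stage effect.

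**Figure D1:**
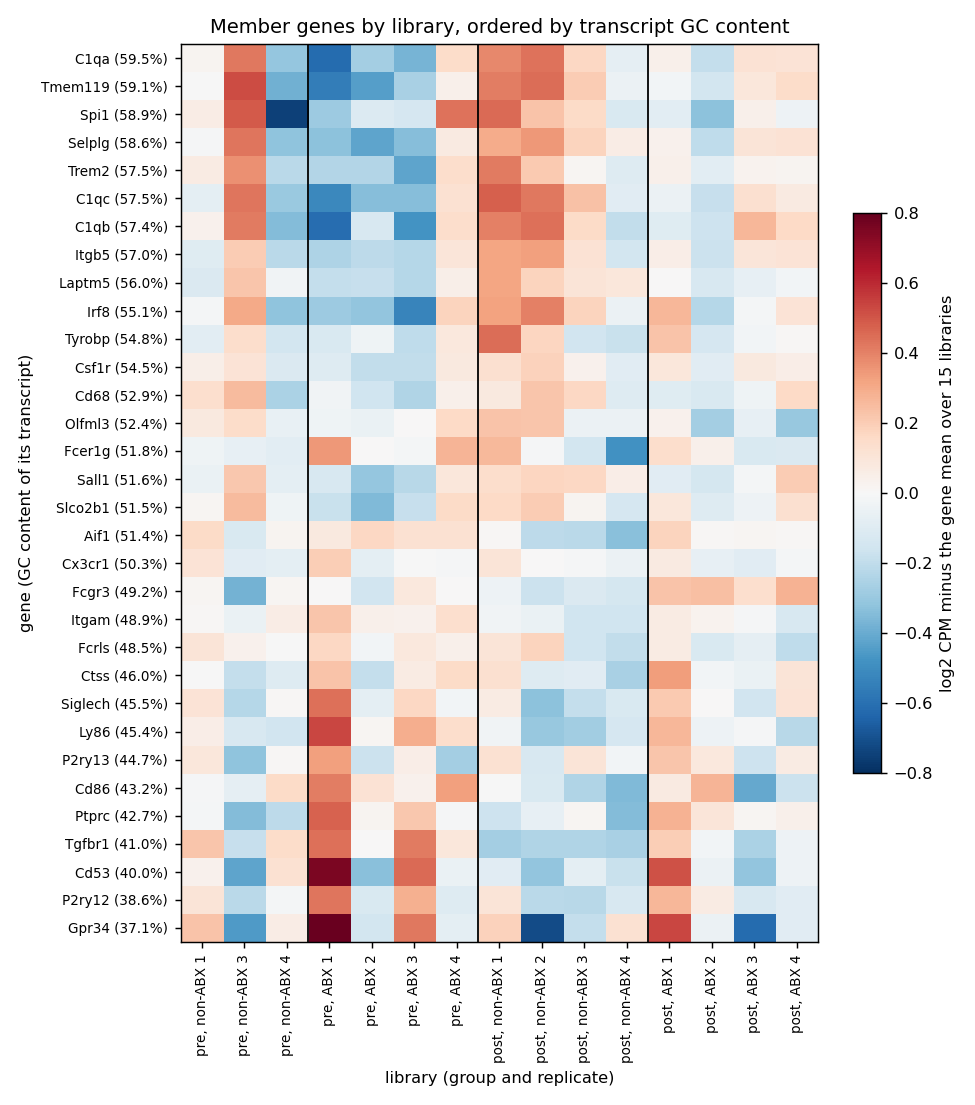
Heat map of the log2 CPM of each member minus its mean over 15 libraries, with genes as rows from the highest transcript GC content (C1qa, 59.5%) to the lowest (Gpr34, 37.1%) and libraries as columns grouped by condition. GC-rich members at the top and GC-poor members at the bottom took opposite colours within the same library, most visibly in pre ABX replicate 1 and pre non-ABX replicate 3.

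Levels differed widely between members when divided by transcript length. Ctss (cathepsin S) stood highest at 48.6 CPM per kilobase of its longest coding transcript, followed by C1qa at 29.4, Csf1r at 27.1, Tyrobp at 23.0 and C1qc at 22.1 CPM per kilobase. The lowest were Ptprc at 0.861, Spi1 at 0.886, Irf8 at 0.911 and Cd86 at 1.00 CPM per kilobase. The ranges over libraries of C1qa, Csf1r, Tyrobp and C1qc overlapped, as did those of the lowest 4. Overlapping ranges do not decide the order of genes measured in the same libraries, and that order was not tested. Cx3cr1 varied least between libraries, with a coefficient of variation of 6.06%, and Gpr34 most, at 28.8%.

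Among the surface receptors of the resting state, 0 of 9 passed in any comparison, and their median averaged ABX effect was 0.01 on the log2 scale. Cx3cr1 was at 65.7, 57.2 and 57.6 CPM in pre non-ABX, 69.8, 57.7, 60.7 and 60.6 in pre ABX, 65.3, 60.9, 60.6 and 58.9 in post non-ABX, and 64.1, 58.1, 57.3 and 60.3 in post ABX libraries, in replicate order. The 4 groups overlapped throughout, and the averaged ABX effect was 0.01 (SE 0.05, 95% interval -0.10 to 0.12, adjusted p = 0.946). P2ry12 stood at 31.8, 25.5 and 29.3 CPM in pre non-ABX, 40.0, 27.3, 36.2 and 27.6 in pre ABX, 31.9, 25.5, 25.4 and 27.1 in post non-ABX, and 35.7, 31.0, 27.1 and 27.9 in post ABX. P2ry12, an ADP receptor that guides microglial processes, was highest in pre ABX replicates 1 and 3 and in post ABX replicate 1, with all groups overlapping (averaged ABX effect 0.17, SE 0.09, adjusted p = 0.240). Tmem119 measured 18.3, 26.3 and 14.0 CPM in pre non-ABX, 12.5, 13.5, 15.3 and 18.8 in pre ABX, 24.3, 24.9, 21.1 and 17.7 in post non-ABX, and 18.0, 16.5, 19.5 and 20.3 in post ABX. Tmem119 leaned the other way, lowest in pre ABX replicate 1 and highest in pre non-ABX replicate 3. Its averaged ABX effect was -0.31 (SE 0.12, 95% interval -0.57 to -0.05, adjusted p = 0.114, and 0.0438 without pre ABX replicate 4). Slco2b1 was at 23.6, 27.8 and 22.8 CPM in pre non-ABX, 20.6, 18.3, 20.5 and 25.9 in pre ABX, 26.1, 26.9, 23.7 and 21.3 in post non-ABX, and 24.8, 21.7, 22.7 and 25.5 in post ABX. Slco2b1, an organic anion transporter, had the third smallest p among members for the difference between the ABX effects at both stages (0.16, SE 0.16, adjusted p = 1.000), with overlapping groups. P2ry13 and Gpr34, receptors for ADP and lysophosphatidylserine, Siglech, Fcrls and Selplg had averaged ABX effects of 0.05, 0.21, 0.18, -0.02 and -0.26 on the log2 scale, with adjusted p-values from 0.121 (Selplg) to 0.816 (Fcrls).

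**Figure D2:**
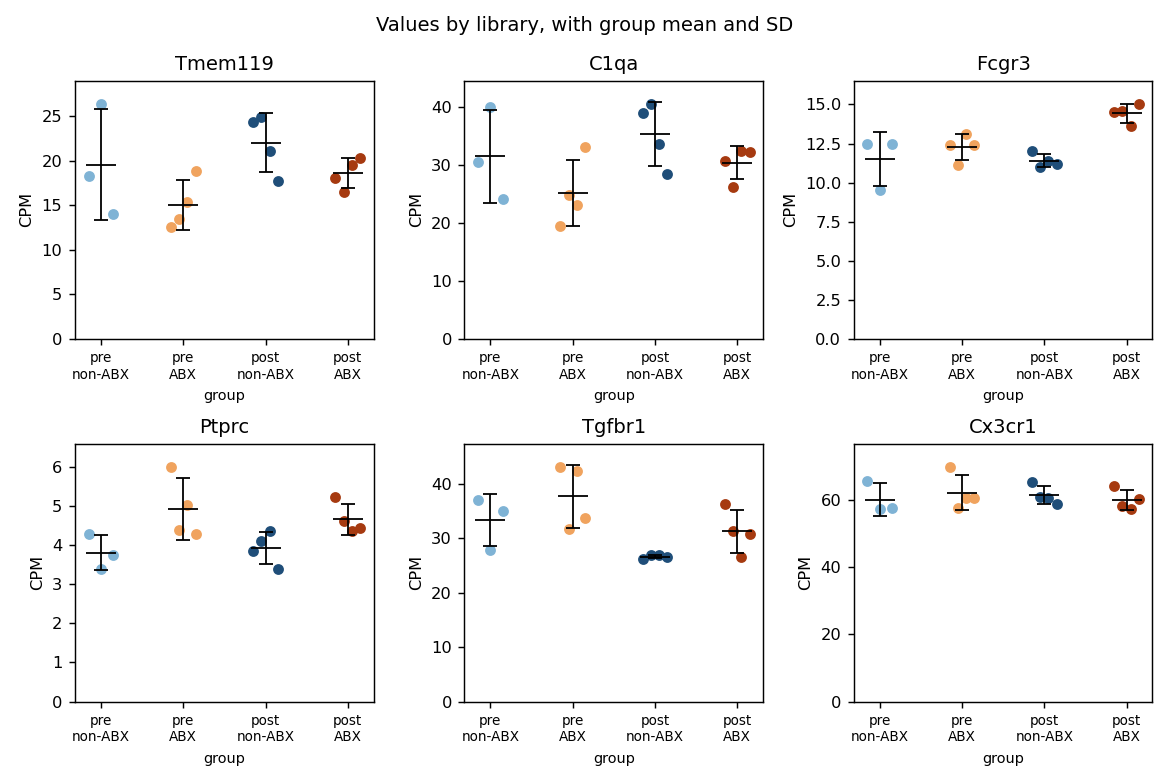
CPM of 6 members by library (points) in the 4 groups, with group mean and SD (bars), each axis starting at 0. Fcgr3 was highest in all 4 post ABX libraries (13.6 to 15 CPM), while Tmem119 and C1qa spread widely within each group and Cx3cr1 stayed between 57.2 and 69.8 CPM.

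The growth factor receptor and lineage factors likewise held 0 of 4 called. Csf1r stood at 131, 137 and 117 CPM in pre non-ABX, 118, 111, 111 and 134 in pre ABX, 139, 144, 130 and 119 in post non-ABX, and 135, 119, 134 and 132 in post ABX. The groups overlapped, and the averaged ABX effect was -0.08 (SE 0.06, 95% interval -0.20 to 0.05, adjusted p = 0.364). Sall1 measured 22.3, 26.9 and 22.0 CPM in pre non-ABX, 21.2, 18.7, 19.9 and 24.7 in pre ABX, 25.6, 26.1, 26.0 and 24.0 in post non-ABX, and 21.8, 21.0, 22.9 and 26.7 in post ABX. Sall1, the factor that sets microglia apart from other macrophages, had a negative averaged ABX effect of -0.15 (SE 0.07, adjusted p = 0.161) with overlapping groups. Spi1, which encodes PU.1, and Irf8 were at a low level, 1.05 to 2.47 CPM and 1.77 to 3.37 CPM, and had averaged ABX effects of -0.15 (SE 0.16) and -0.20 (SE 0.12).

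In the TGF-beta axis, the receptor gene Tgfbr1 had the smallest p of all members for the averaged stage effect. Tgfbr1 was at 37.1, 27.9 and 35.1 CPM in pre non-ABX, 43.1, 31.8, 42.4 and 33.8 in pre ABX, 26.3, 26.9, 26.9 and 26.5 in post non-ABX, and 36.4, 31.3, 26.6 and 30.9 in post ABX. All 4 post non-ABX libraries lay below all 3 pre non-ABX libraries, the only member to separate these groups downwards (3.57% of all genes did). Post against pre, the log2 difference was -0.33 (SE 0.12, adjusted p = 0.896) in non-ABX and -0.27 (SE 0.11, adjusted p = 0.268) in ABX mice, where the groups overlapped. The averaged stage effect was -0.30 (SE 0.08, 95% interval -0.48 to -0.12, adjusted p = 0.0960, between 0.0272 and 0.274 when 1 library was left out, 0.0262 with DESeq2 and 0.00242 with voom), and -0.15 (adjusted p = 0.175) with the trend of counts on GC content removed from each library. Olfml3 stood at 19.4, 20.3 and 17.6 CPM in pre non-ABX, 17.9, 17.7, 18.4 and 20.5 in pre ABX, 21.5, 21.4, 17.8 and 17.8 in post non-ABX, and 18.8, 15.2, 17.5 and 14.9 in post ABX. Olfml3, a secreted matrix protein, was lowest in post ABX replicates 2 and 4 and had a log2 difference of -0.24 (SE 0.09, adjusted p = 0.315) between ABX and non-ABX after extinction, with overlapping groups. Itgb5, an integrin chain, ranged from 30.8 to 45.9 CPM with an averaged stage effect of 0.18 (SE 0.09, adjusted p = 0.252).

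The members around TREM2 were not called either (0 of 4). Trem2 measured 9.41, 11.6 and 7.76 CPM in pre non-ABX, 7.66, 7.64, 6.72 and 9.92 in pre ABX, 12, 10.4, 9.10 and 8.38 in post non-ABX, and 9.24, 8.48, 9.19 and 9.12 in post ABX. Trem2 was highest in post non-ABX replicate 1 and pre non-ABX replicate 3, and its averaged ABX effect was -0.21 (SE 0.10, adjusted p = 0.179). Tyrobp was at 12.8, 15 and 12.3 CPM in pre non-ABX, 12.5, 13.3, 11.8 and 14.4 in pre ABX, 18.5, 15.3, 12.2 and 12 in post non-ABX, and 15.9, 12.4, 13.4 and 13.7 in post ABX. Its adaptor Tyrobp had an averaged ABX effect of -0.05 (SE 0.09, adjusted p = 0.723), with overlapping groups. Fcgr3 stood at 12.5, 9.53 and 12.5 CPM in pre non-ABX, 12.4, 11.1, 13.1 and 12.4 in pre ABX, 12, 11.0, 11.4 and 11.2 in post non-ABX, and 14.5, 14.6, 13.6 and 15 in post ABX. Fcgr3, a low-affinity receptor for IgG that signals through the chain encoded by Fcer1g, was higher in every post ABX library than in every post non-ABX library and every pre ABX library. Between ABX and non-ABX after extinction the log2 difference was 0.34 (SE 0.09, 95% interval 0.16 to 0.53, unadjusted p = 0.00125, adjusted p = 0.173), and 4.74% of all genes separated these groups upwards. DESeq2 gave an adjusted p of 0.0286 and voom 0.0271 for the same comparison. Before extinction the difference was 0.09 (SE 0.09, adjusted p = 0.602), and the test of the change in the ABX effect gave 0.26 (SE 0.13, adjusted p = 1.000). The averaged ABX effect of Fcgr3 was 0.21 (SE 0.06, adjusted p = 0.0711, and 0.0457 without pre ABX replicate 4 or 0.0487 without pre non-ABX replicate 4). Post ABX replicate 1, the library with the most leukocyte transcripts of blood, stood at 14.5 CPM, between the other 3 post ABX libraries (13.6 to 15 CPM). Fcgr3 resembles Fcgr2b in sequence, and the sources used here do not say how reads that fit both were counted. Fcgr2b, chosen after its values were seen, measured 3.94 ± 0.459 CPM in post ABX and 3.54 ± 0.386 CPM in post non-ABX (SD, n = 4 each), a log2 difference of 0.15 (adjusted p = 0.588). Fcer1g, the shared signalling chain, separated ABX from non-ABX libraries before extinction (7.47 to 9.60 against 7.12 to 7.36 CPM), with overlap after it and an averaged ABX effect of 0.14 (SE 0.10, adjusted p = 0.325).

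The C1q genes were lower on average in ABX than in non-ABX libraries at both stages, with overlapping libraries and 0 of 3 called. C1qa measured 30.4, 40.0 and 24.1 CPM in pre non-ABX, 19.5, 24.8, 23.1 and 33.1 in pre ABX, 39.0, 40.4, 33.5 and 28.4 in post non-ABX, and 30.7, 26.2, 32.4 and 32.2 in post ABX. C1qb was at 7.53, 9.79 and 5.76 CPM in pre non-ABX, 4.82, 6.70, 5.27 and 8.10 in pre ABX, 9.70, 9.98, 8.15 and 6.41 in post non-ABX, and 6.87, 6.54, 8.84 and 8.19 in post ABX. C1qc stood at 24.7, 35.1 and 21.2 CPM in pre non-ABX, 18.2, 20.6, 20.6 and 28.3 in pre ABX, 36.2, 34.9, 30.6 and 24.5 in post non-ABX, and 25.2, 22.9, 28.5 and 27.4 in post ABX. Every group overlapped the others for all 3 genes, and before extinction the highest ABX library (replicate 4) lay above 2 of the 3 non-ABX libraries. The sum of the 3 averaged 66.2 ± 17.2 CPM (SD, n = 3) in pre non-ABX, 53.3 ± 11.6 (SD, n = 4) in pre ABX, 75.5 ± 12.3 (SD, n = 4) in post non-ABX and 64.0 ± 6.30 (SD, n = 4) in post ABX. Averaged ABX effects were -0.27 for C1qa (SE 0.12, 95% interval -0.53 to -0.02, adjusted p = 0.143), -0.24 for C1qb (SE 0.14, adjusted p = 0.246) and -0.29 for C1qc (SE 0.12, adjusted p = 0.120). Without pre ABX replicate 4 the adjusted p was 0.0392 for C1qa and 0.0364 for C1qc, and without pre non-ABX replicate 3 that of the stage effect of C1qc was 0.0469. Itgam measured 30.9, 29.6 and 32 CPM in pre non-ABX, 35.8, 31.7, 31.5 and 33.7 in pre ABX, 30.2, 29.6, 27.6 and 27.6 in post non-ABX, and 32.2, 31.4, 30.6 and 28.1 in post ABX. Itgam, the alpha chain of the receptor for cleaved C3, had an averaged ABX effect of 0.10 (SE 0.05, adjusted p = 0.180) and an averaged stage effect of -0.11 (SE 0.05, adjusted p = 0.225), with overlapping groups.

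Lysosomal members counted 0 of 3 called. Laptm5 was at 27.8, 35.2 and 29.6 CPM in pre non-ABX, 26.4, 26.5, 25.7 and 31.1 in pre ABX, 37.5, 34.1, 32.4 and 32.1 in post non-ABX, and 30.2, 27.6, 28.8 and 29.7 in post ABX. All 4 post ABX libraries lay below all 4 post non-ABX libraries for Laptm5, a lysosomal membrane protein (6.36% of all genes separated these groups downwards), with a log2 difference of -0.22 (SE 0.08, adjusted p = 0.307). Its averaged ABX effect was -0.20 (SE 0.06, adjusted p = 0.0737, and 0.0267 without pre ABX replicate 4), and -0.03 (adjusted p = 0.734) with the GC trend removed. Ctss ranged from 54.7 to 82.6 CPM and had an averaged ABX effect of 0.17 (SE 0.08, adjusted p = 0.148). Cd68, a glycoprotein of phagocytic lysosomes, ranged from 6.56 to 9.31 CPM and had an averaged ABX effect of -0.14 (SE 0.08, adjusted p = 0.271).

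The 5 general leukocyte genes had positive averaged ABX effects, with a median of 0.26 on the log2 scale and 0 of 5 called. Over all genes 52.5% were positive, and 87.1% of those under 45% transcript GC content, where Ptprc, Cd53 and Cd86 lie. With the GC trend removed all 5 stayed positive, with a median of 0.18. Ptprc stood at 4.28, 3.40 and 3.74 CPM in pre non-ABX, 6.00, 4.39, 5.02 and 4.29 in pre ABX, 3.85, 4.12, 4.36 and 3.39 in post non-ABX, and 5.24, 4.63, 4.37 and 4.44 in post ABX. Ptprc, which encodes the leukocyte phosphatase CD45, had the smallest p of all members for the averaged ABX effect (0.31, SE 0.09, 95% interval 0.12 to 0.50, adjusted p = 0.0689, and 0.0290 without pre ABX replicate 4), and 0.19 (adjusted p = 0.141) with the GC trend removed. Its ABX libraries lay above the non-ABX libraries at both stages, by narrow margins (4.29 against 4.28 CPM before extinction and 4.37 against 4.36 CPM after it). Ly86 measured 9.15, 8.09 and 7.94 CPM in pre non-ABX, 12.8, 8.93, 10.8 and 9.72 in pre ABX, 8.64, 7.15, 7.28 and 8.03 in post non-ABX, and 10.6, 8.60, 8.76 and 7.56 in post ABX. Ly86, a secreted partner of a Toll-like receptor homologue, overlapped between groups at both stages (averaged ABX effect 0.26, SE 0.09, adjusted p = 0.0838, and 0.0476 without pre ABX replicate 4). Aif1 was at 5.86, 4.86 and 5.37 CPM in pre non-ABX, 5.58, 5.93, 5.74 and 5.74 in pre ABX, 5.32, 4.56, 4.55 and 4.18 in post non-ABX, and 5.98, 5.31, 5.34 and 5.31 in post ABX. Aif1, which encodes the widely stained microglial protein Iba1, was highest in post ABX replicate 1 and had its 3 lowest values in post non-ABX libraries, with a log2 difference of 0.24 (SE 0.09, adjusted p = 0.315) between ABX and non-ABX after extinction and an overlap only at 5.31 to 5.32 CPM. Cd86 stood at 2.50, 2.39 and 2.80 CPM in pre non-ABX, 3.34, 2.72, 2.58 and 3.16 in pre ABX, 2.51, 2.31, 2.13 and 1.97 in post non-ABX, and 2.64, 3.03, 1.89 and 2.23 in post ABX. Cd86, a costimulatory ligand, had an averaged stage effect of -0.23 (SE 0.10, adjusted p = 0.226). Cd53, a tetraspanin, ranged from 4.47 to 10.1 CPM with an averaged ABX effect of 0.28 (SE 0.16, adjusted p = 0.231). All 5 are also made by blood leukocytes, whose markers were highest in post ABX replicate 1. Without the 3 libraries richest in blood transcripts, all of them ABX, the effects were 0.24 for Ptprc (adjusted p = 0.327), 0.19 for Ly86 (adjusted p = 0.335), 0.16 for Cd53, 0.14 for Aif1 and 0.13 for Cd86. The libraries left out were post ABX replicate 1 (28.2 CPM of leukocyte and red cell markers) and pre ABX replicates 2 (16.1) and 1 (13.8). Kept libraries reached 13.4 CPM. Pre ABX replicate 1 was not high in leukocyte markers alone (12.1 CPM) and had the lowest slope of counts on GC content (-0.43). In that fit 1 of 16906 genes was called for the averaged ABX effect. Blood content, GC trend and the number of libraries changed together, and their parts were not tested.

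The direction of a member's difference went with the GC content of its transcript. All 10 members with a transcript GC content of at least 55% (Tmem119, Selplg, Spi1, Irf8, Itgb5, Trem2, C1qa, C1qb, C1qc and Laptm5) had a negative averaged ABX effect, with a median of -0.22, and all 10 a positive averaged stage effect, with a median of 0.21. All 7 members under 45% (P2ry12, P2ry13, Gpr34, Tgfbr1, Ptprc, Cd53 and Cd86) had a positive averaged ABX effect, with a median of 0.21, and 6 of the 7 a negative averaged stage effect, with a median of -0.15 (P2ry13 was at 0.07). The same held over all tested genes with a GC value: 9.12% of the 3871 genes with at least 55% had a positive averaged ABX effect (median -0.22), against 87.1% of the 3461 genes under 45% (median 0.12). Across the 32 members the correlation of GC content with the averaged ABX effect was r = -0.87 (Spearman's rho = -0.90). This is a description over genes that share the same 15 libraries, and genes are not replicates. ABX and stage effects share libraries, so their opposite signs are not separate observations.

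**Figure D3:**
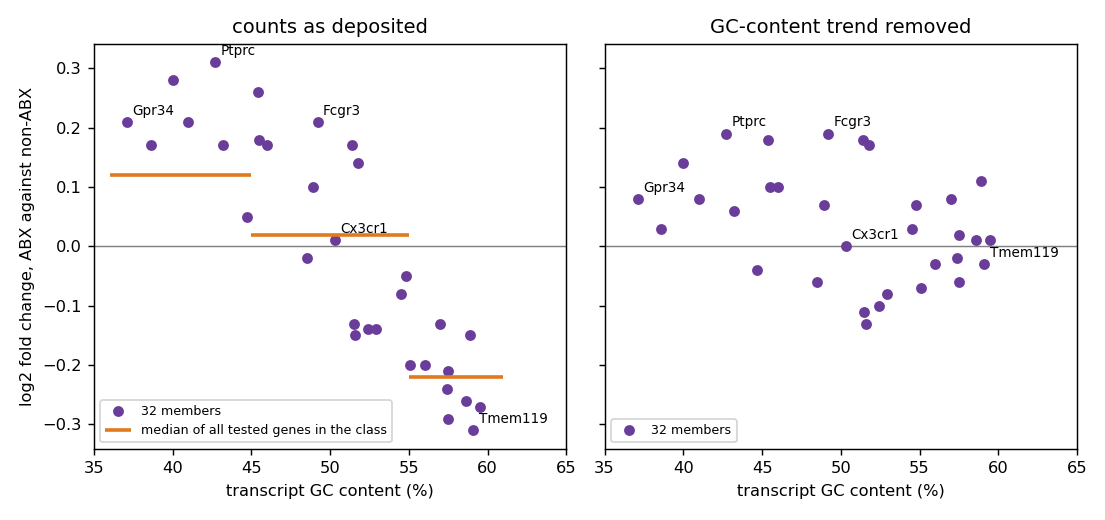
Averaged ABX effect (log2 fold change) of the 32 members against the GC content of their transcripts, from the counts as deposited (left) and with the trend on GC content removed in each library (right), with bars for the median of all tested genes in 3 GC classes. On the left the members fall from 0.31 (Ptprc) to -0.31 (Tmem119) along the axis, and on the right all lie between -0.13 and 0.19.

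With a smooth trend on GC content removed from each library, the spread of the members' averaged ABX effects fell from an SD of 0.19 to 0.09 (log2), and that of the stage effects from 0.15 to 0.09. A relation to GC content was left for the averaged ABX effect (r = -0.37, rho = -0.38 over the 32 members), less so for the averaged stage effect (r = 0.07, rho = 0.08). Of the 7 members under 45% GC, 6 still had a positive averaged ABX effect. The effect of C1qa became 0.01 (95% interval -0.10 to 0.12), that of Tmem119 -0.03 (-0.16 to 0.10) and that of Trem2 0.02 (-0.13 to 0.17). Members whose values moved little included Fcgr3 (0.19, adjusted p = 0.0588), Aif1 (0.18, adjusted p = 0.100), Fcer1g (0.17, adjusted p = 0.274), Slco2b1 (-0.11, adjusted p = 0.305), Cx3cr1 (0.00, adjusted p = 0.997), Itgam (0.07, adjusted p = 0.293) and Sall1 (-0.13, adjusted p = 0.193). Their transcripts are of mid-range GC content, from 48.9% (Itgam) to 51.8% (Fcer1g). All tested genes of 45% to 55% had a median averaged ABX effect of 0.02. Members nearer the ends of that class moved more on removal. Csf1r (54.5%) went from -0.08 to 0.03 and Ly86 (45.4%) from 0.26 to 0.18. That the members from 48.9% to 51.8% moved little follows from their GC content and is not a separate result. The Fcgr3 difference after extinction was 0.32 (95% interval 0.16 to 0.48, adjusted p = 0.0595). No member was called in any of the 7 comparisons after this removal, while 768 of all genes were called for the averaged ABX effect in place of 105. What sets the GC trend of a library was not tested.

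**Figure D4:**
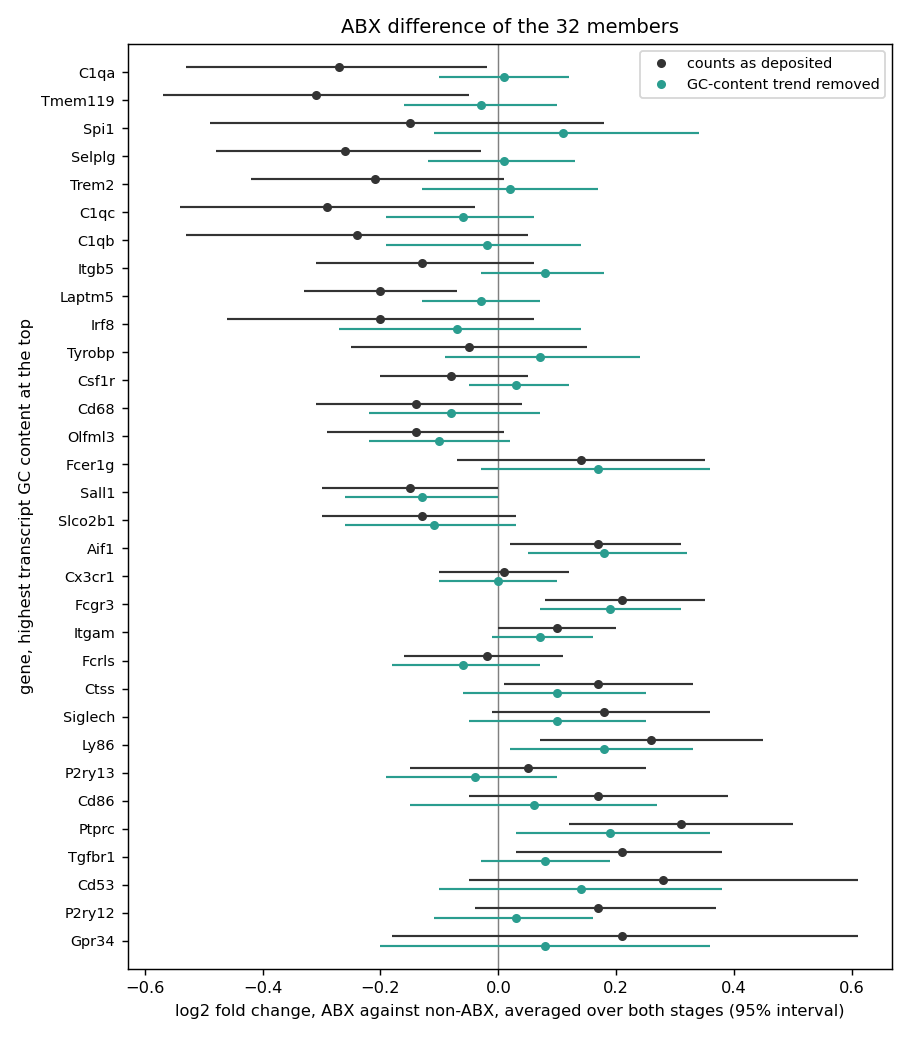
Averaged ABX effect (log2 fold change, point) with its 95% interval (line) for each member, from the counts as deposited (dark) and with the GC-content trend removed (green), ordered by transcript GC content from C1qa at the top to Gpr34 at the bottom. GC-rich members sit left of 0 and GC-poor members right of 0 in the dark series, and the green series lies nearer to 0 with shorter intervals for most members.

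The size of this trend differed between libraries of 1 group and, on average, between groups. Expressed as a slope (log2 ratio to the mean of all libraries per 10 points of GC content, over 12578 genes), it ran from -0.43 to 0.05 in pre ABX, from -0.15 to 0.33 in pre non-ABX, from -0.13 to 0.13 in post ABX and from 0.04 to 0.30 in post non-ABX. Mean slopes were -0.21 (SD 0.21) in pre ABX, 0.04 (SD 0.25) in pre non-ABX, 0.01 (SD 0.14) in post ABX and 0.18 (SD 0.11) in post non-ABX. On average the slope thus went with both ABX and stage, and their parts in the members' differences cannot be told apart. The log2 C1q sum followed the slope, with r = 0.96 and rho = 0.97 over 15 libraries. A permutation test (100000 resamples, two-sided) gave p = 1e-05 for both, the smallest it can give, adjusted 3e-05 over 6 relations. The correlation was 0.94 within groups and 0.94 without the 2 libraries farthest from the median slope. Tmem119 gave r = 0.93 and rho = 0.97 (p = 1e-05 for both, adjusted 3e-05, 0.87 within groups and 0.94 without the 2 farthest), and Cd53 r = -0.79 and rho = -0.68 (permutation p = 0.00044 and 0.0065, adjusted 0.00088 and 0.013, -0.75 within groups and -0.55 without the 2 farthest). For Fcgr3 r was -0.40 and rho -0.40 (permutation p = 0.15 for both, adjusted 0.17, -0.61 within groups and -0.48 without the 2 farthest). Cx3cr1 gave r = -0.34 and rho = -0.18 (permutation p = 0.21 and 0.52, adjusted 0.21 and 0.52, -0.39 within groups and 0.04 without the 2 farthest). The sum of all members gave r = 0.42 and rho = 0.49 (permutation p = 0.12 and 0.068, adjusted 0.17 and 0.1, 0.36 within groups and 0.58 without the 2 farthest). The slope came from the counts of other genes in these same libraries. Transcripts of the C1q genes (57.4% to 59.5% GC) and Tmem119 (59.1%) are GC-rich, and that of Cd53 (40.0%) is GC-poor. Relations in these directions follow from the trend itself, and their p-values add no separate result. With the GC trend removed, the members' correlations with the slope within groups still ran from -0.59 (P2ry13) to 0.76 (C1qb).

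**Figure D5:**
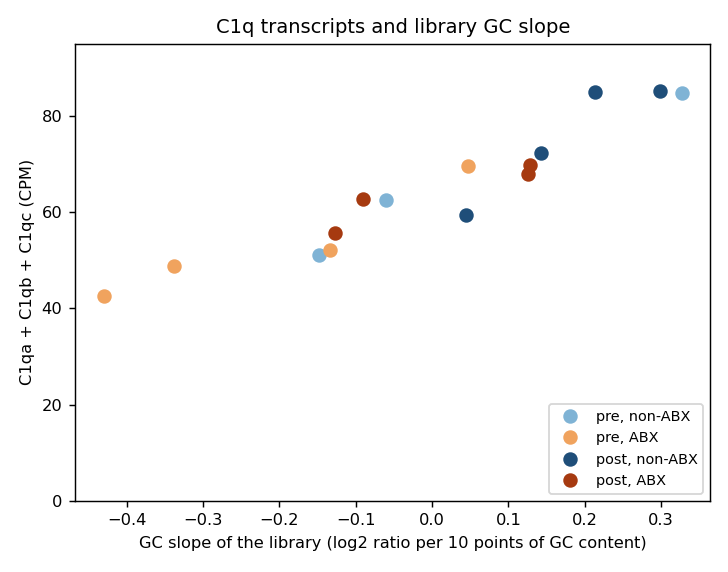
Sum of C1qa, C1qb and C1qc (CPM) against the GC slope of the library (log2 ratio per 10 points of GC content), 1 point per library, coloured by group. The sum runs from 42.6 CPM in pre ABX replicate 1 (slope -0.43) to 85.2 CPM in post non-ABX replicate 2 (slope 0.30), with pre ABX replicate 4 (69.6 CPM) and post non-ABX replicate 4 (59.4 CPM) apart at nearly the same slope.

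After the group means were subtracted, the 496 pairs of members had a median correlation of 0.34 over the 15 libraries, and of 0.54 with the GC trend removed. The pairs among the C1q genes were at 0.95 to 0.97 and then at 0.72 to 0.84. C1q genes against members under 45% GC had a median correlation of -0.56 as deposited and of 0.38 with the trend removed, and P2ry12 with Tmem119 went from -0.38 to 0.75. The pair of Trem2 and its adaptor Tyrobp was at 0.84 and 0.80, and Cx3cr1 with Siglech at 0.91 was the closest pair with the trend removed. The member least like the mean of the others was Fcgr3 as deposited (0.04) and again with the trend removed (0.28). These correlations are descriptions over 15 libraries that share depth, base composition and cell content.

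Other genes of the same pathways showed few calls. Of 37 tested further microglial genes 0 passed in any comparison, and among those with small p-values for the averaged ABX effect were Abi3 (-0.52, SE 0.14, adjusted p = 0.0653) and Havcr2 (0.36, SE 0.11, adjusted p = 0.0746). With the GC trend removed these were -0.24 (adjusted p = 0.0502) and 0.28 (adjusted p = 0.102). Of 18 genes of CSF1R and TREM2-TYROBP signalling 0 passed, with a median averaged ABX effect of -0.02. In the complement cascade and its receptors 1 of 25 passed, Cd46. It measured 2.00 ± 0.322 CPM in ABX (SD, n = 8) and 1.40 ± 0.198 CPM in non-ABX libraries (SD, n = 7), an averaged ABX effect of 0.50 (SE 0.11, adjusted p = 0.0466). That call held in 3 of 15 fits that each left out 1 library (adjusted p from 0.0150 to 0.163, log2 difference from 0.45 to 0.55). It also held with the GC trend removed (0.38, adjusted p = 0.0297). Without the 3 libraries richest in blood transcripts Cd46 was not called (adjusted p = 0.293), in a fit where 1 of 16906 genes was called. Of 22 ligands and partners of microglial receptors 0 passed. Cx3cl1, the neuronal ligand of CX3CR1, had an averaged ABX effect of -0.32 (SE 0.08, adjusted p = 0.0609) that became -0.12 (adjusted p = 0.128) without the GC trend. Il34, a ligand of CSF1R, had -0.27 (SE 0.08, adjusted p = 0.0712) and then -0.07 (adjusted p = 0.383). Itgb8, whose integrin activates TGF-beta, had an averaged stage effect of -0.27 (SE 0.06, adjusted p = 0.0513) that became -0.12 (adjusted p = 0.363). Nrros, which presents latent TGF-beta on microglia, had 0.31 (SE 0.09, adjusted p = 0.0915) and then 0.25 (adjusted p = 0.0589). Of 33 genes of activated and phagocytic microglia 0 passed. Among them Il1b, the gene of an inflammatory cytokine, stood at 0.293 CPM on average, with a stage effect of -0.67 (SE 0.20, adjusted p = 0.109).

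Markers of other cell types were read beside these values. Among endothelial markers 7 of 20 passed as lower in the averaged ABX effect (Podxl, Flt1, Sox17, Eng, Kdr, Tie1 and Ly6c1, 0.624% of all genes called), all 20 were negative, and the median was -0.40, or -0.35 with the GC trend removed. Between 1 and 16 of the 20 passed when 1 library was left out, and Podxl passed in all 15 such fits (-0.53, SE 0.07, adjusted p = 0.00530). Without the 3 libraries richest in blood transcripts none of these 7 passed (adjusted p = 0.110 for Podxl and 0.293 for the other 6). In that fit 1 of 16906 genes was called, so a lost call says little about a single gene. The endothelial sum was 368 ± 57.9 CPM in pre ABX, 489 ± 32 in pre non-ABX, 383 ± 48.0 in post ABX and 488 ± 10.4 in post non-ABX (SD). Of 16 perivascular macrophage markers 0 passed, with Stab1, a scavenger receptor that endothelium also carries, at -0.46 for ABX (SE 0.11, adjusted p = 0.0552), or -0.25 (adjusted p = 0.0202) with the GC trend removed. For stage, 10 of the 16 were positive and 6 negative (median 0.05, from -0.43 to 0.56). Cd163 and Lyve1, defining markers of perivascular macrophages with the smallest p-values for stage in that list, had averaged stage effects of 0.38 (SE 0.10, adjusted p = 0.0700) and 0.56 (SE 0.15, adjusted p = 0.0878), and of 0.42 (adjusted p = 0.0269) and 0.63 (adjusted p = 0.0453) with the GC trend removed. Whether these cells contribute to the members' values was not tested. Of the astrocyte markers 1 of 10 passed, Aqp4, lower after extinction (averaged stage effect -0.31, SE 0.07, adjusted p = 0.0442, and from 0.0233 to 0.160 when 1 library was left out). With the GC trend removed it was not called (-0.17, adjusted p = 0.129), and of the 10 astrocyte markers 4 had positive and 6 negative stage effects as deposited. The 7 tested leukocyte markers of blood, 2 of red cells, 10 of oligodendrocytes and 10 of neurons had 0 called.

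Some members overlap other genes on the genome, and the labelled library kit is not one that marks strand. P2ry12 and P2ry13 lie within the span of Med12l and Gpr34 within that of Cask, while Cx3cr1, Slco2b1, Csf1r and Itgam share exon bases with Gm33858, with Gm15635 and Gm34280, with Hmgxb3 and with Gm49368. Reads from such shared bases cannot be assigned to either gene without strand, so the values of these members are uncertain to that extent.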

How the data were processed

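Raw gene counts of 15 mouse mPFC libraries, from 44254906 to 57929503 counts each, were taken as deposited by the authors. The submitters' processing notes name mm10 as the build and list STAR 2.3.0 and CASAVA 1.8.2; the sources used here name no counter, annotation or filter. Of 27179 identifiers, 25275 were matched to symbols (99.73% of counts). Genes were filtered with filterByExpr (minimum count 10, minimum total 15), scaled by TMM (0.969 to 1.03) and tested with edgeR 4.0.16 (R 4.3.3) by glmQLFit and glmQLFTest over 4 group means and all 15 libraries, two-sided, with Benjamini-Hochberg adjustment over 16816 genes and a threshold of 0.05. The biological coefficient of variation was 0.112. Effects are log2 fold changes, ABX over non-ABX or post over pre. Intervals are 95% and use the moderated degrees of freedom. log2 CPM used a prior count of 2. GC content is that of the longest protein-coding transcript in GENCODE M21, and its trend was removed in each library with a spline of 5 degrees of freedom. The scripts were tested on simulated data.

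Alternatives were DESeq2 1.42.0, limma 3.58.1 (voom, each library weighted by its quality), RLE in place of TMM, all genes unfiltered, a mean of at least 1 CPM, only the groups compared, a replicate block, GC removal, each library left out, and the 3 libraries richest in blood transcripts left out. The members and lists were chosen with earlier results of these data known. Values in every library are given for 10 fixed members and the 3 of smallest p in each comparison. From each other list, genes called in any comparison and the 3 of smallest p for the averaged ABX and stage effects were eligible for naming. A gene that this rule would name is not reported here.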

Additional observations from a re-analysis of the deposited data

Results flagged for a closer look

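Of 96 combinations of a member with a group of 4 libraries, 4 had a library whose gap to the nearest of the others exceeded Dixon's 95% critical value (0.829 of the range for 4 libraries); chance flags about 5% of such groups. Trem2 was lowest in post ABX replicate 2 at 8.48 CPM, with the other 3 libraries at 9.12 to 9.24 CPM. Aif1 was highest in post ABX replicate 1 at 5.98 CPM, with the others at 5.31 to 5.34 CPM. Itgb5 was highest in pre ABX replicate 4 at 39.1 CPM, with the others at 30.8 to 31.7 CPM. Laptm5 was highest in the same library at 31.1 CPM, with the others at 25.7 to 26.5 CPM.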

How the results depend on the processing

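The members' median log2 fold change stayed between -0.10 and 0.09 in all 165 combinations of a comparison with 1 of 24 alternatives, within the spread of 0.10 between libraries. The count of called members was the same in 154 of 165. For ABX against non-ABX after extinction it was 1 with DESeq2 and 1 with voom (Fcgr3 in both), and for stage in non-ABX 5 with voom. For the averaged ABX effect it was 4 with DESeq2 and 0 to 8 when a library was left out, and for the averaged stage effect 1 with DESeq2, 13 with voom (37.8% of all genes) and 0 to 4 when a library was left out. Over all genes the averaged ABX effect had 105 calls, against 1977 with DESeq2, 902 with voom, 768 with the GC trend removed and 1 without the 3 libraries richest in blood transcripts. The averaged stage effect had 162, against 704, 6358, 299 and 65. Among 955 repeats for named members, 911 kept their direction and side of the threshold. No named member was called in the main fit, so none could lose a call. A kept direction can also hold a smaller effect, as for Laptm5 (averaged ABX effect -0.20, and -0.03 with the GC trend removed). Of the other repeats, 27 newly passed the threshold and 17 changed sign, to small values (C1qa from -0.27 and Trem2 from -0.21 for ABX). In the averaged ABX effect these were Cx3cr1 (-0.06 with voom, -0.03 without the blood-rich libraries, -0.02 to 0.05 with a library left out), Tyrobp (0.01 with voom, 0.07 with the GC trend removed, -0.09 to 0.02 with a library left out), and with the GC trend removed Csf1r (0.03), Trem2 (0.02) and C1qa (0.01). In the averaged stage effect they were P2ry12 (0.09) and Trem2 (-0.03) with the GC trend removed and Cx3cr1 (-0.03 to 0.03 with a library left out). The GC removal changes values by its construction; for the other settings the cause was not tested.

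With the replicate number as a block, 1 member was called in the averaged ABX effect (Ly86, 0.28, adjusted p = 0.0388) and the members' count stayed at 0 in the other comparisons, while calls over all genes went from 105 to 666 for ABX and from 162 to 96 for stage. The labels do not say whether the numbers pair the libraries. In their deviations from the group means, 21 same-numbered pairs correlated from -0.491 to 0.374. Differently numbered pairs were not set beside them, and the deviations hold the GC trend of each library, so these values do not decide it. The block together with GC removal was not run.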
